A study of Mus musculus with 24 samples.

Results

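The comparison of ovalbumin with saline in the lungs of mice that had breathed a high dose of diesel exhaust rested on 8 of the 24 Affymetrix arrays of the series. They were chosen by title: 4 arrays of lung from mice given ovalbumin and 4 of lung from mice given saline. All 8 came from mice that breathed diesel exhaust (DE) at 2000 ug/m3 (DE 2000) for 4 hours a day over 5 days. The OVA group received 100 ug of ovalbumin, and the saline group received saline in its place, on 3 days. The 16 other arrays held OVA and saline groups of 4 after filtered air or exhaust at 500 ug/m3 (DE 500), on the same schedule. The sources used here do not give strain, sex, age, the route of ovalbumin or the hour of collection. The labels do not say whether the 4 replicates of a group were separate animals, so p-values measure the spread between these samples, which may be technical. The series title places the work in diesel-enhanced allergic sensitization, so the question addressed is how ovalbumin shifted lung transcripts when exhaust was already present.

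Ovalbumin is an egg white protein used as a model allergen: taken up by antigen-presenting cells and shown to helper T cells, it can drive interleukin 4 and interleukin 13, antibody of the IgE class, eosinophil influx and mucus. Diesel exhaust particles carry polycyclic hydrocarbons and cause oxidative stress and neutrophil influx in the airways, and they can act as an adjuvant to an inhaled allergen. RNA of whole lung averages over all of its cells, so that fewer cells of a type and less RNA per cell cannot be told apart.

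The label lung fitted the arrays. Surfactant protein C (Sftpc), made by alveolar type 2 cells, lay between 14.72 and 15.22 in log2 signal in the 8 arrays, and the club cell secretoglobin Scgb1a1 lay between 14.50 and 14.81. Transcripts of heart muscle were also measured: the mean log2 level of 26 cardiac markers ranged from 9.37 to 9.82 with OVA and from 8.72 to 10.17 with saline. Values below are log2 MAS5 signals unless said otherwise, a difference is OVA minus saline, ± marks its standard error (SE), and the adjusted p-values are limma's, with Benjamini-Hochberg adjustment over the 13575 probe sets tested. A gene was called, and is said to rise or fall, at an adjusted p below 0.05. Each gene was represented by its tested probe set of highest mean signal.

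The RNA of the 2 groups did not look alike in the controls that measure its evenness. Averaged over Gapdh and actin, the log2 signal of the 3' control probe set minus that of the 5' one (the 3'/5' ratio) was 0.05, -0.13, 0.09 and 2.02 in OVA replicates 1 to 4 and 2.04, 1.61, 1.30 and 1.55 in the saline arrays. OVA replicate 4 thus lay among the saline arrays, and the other 3 OVA arrays lay below all of them. The means were 0.51 ± 1.01 (SD, n = 4) and 1.63 ± 0.31, a difference of -1.12 (exact permutation test, two-sided p = 0.114, BH-adjusted over 6 measures 0.229). The signal of the B1 control, a short repeat carried by many unspliced transcripts, was 11.06, 10.98, 10.85 and 12.43 with OVA and 13.31, 12.99, 13.17 and 12.95 with saline. All 4 OVA arrays lay below the saline arrays (difference -1.77, exact permutation test, two-sided p = 0.0286, the smallest that 4 against 4 allows, BH-adjusted 0.171). Group means had the same order in the other exposures, with mean 3'/5' ratios of 0.08 (OVA) and 1.74 (saline) in air and 0.03 and 2.15 at DE 500. The DE 500 saline arrays were split, at 4.38 and 3.77 in 2 arrays and at 0.33 and 0.10 in the others, which lay near the OVA level. Log2 signals of OVA replicate 4 correlated at 0.884 to 0.89 with the other OVA arrays and at 0.915 to 0.925 with the saline arrays, while the other 3 OVA arrays correlated at 0.947 to 0.952 among themselves. The main counts and the counts of each gene list are therefore also given without that array.

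**Figure D1:**
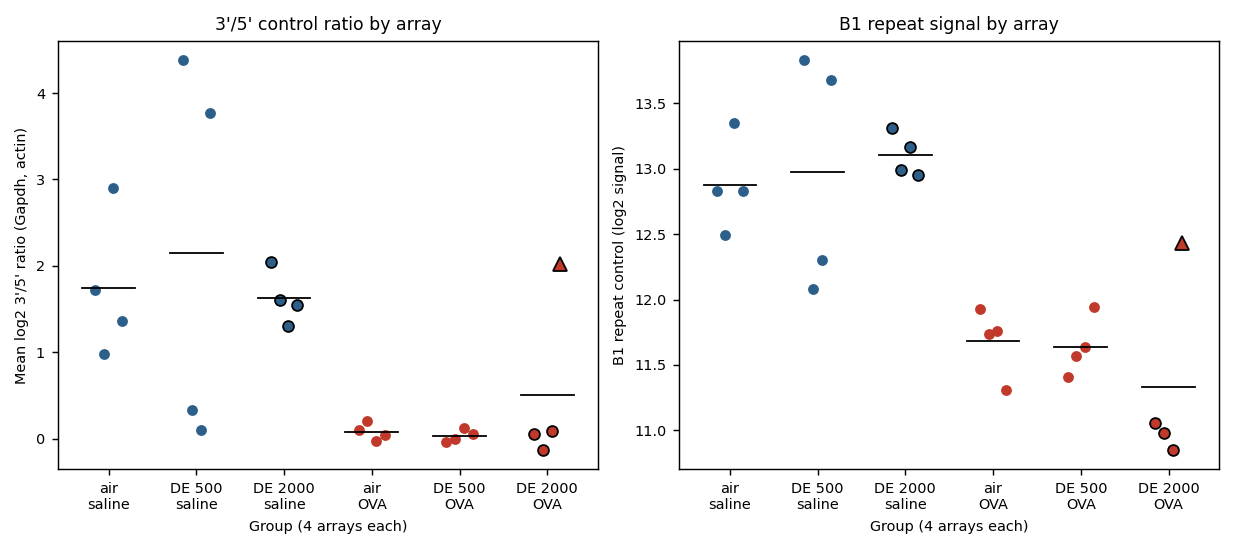
The left plot shows the log2 3'/5' ratio averaged over the controls for Gapdh and actin and the right plot the log2 signal of the B1 repeat control, 1 point per array and 4 arrays per group, with a line at each mean; the 8 arrays compared have black outlines and OVA replicate 4 is the triangle. At DE 2000, OVA replicates 1 to 3 have ratios between -0.13 and 0.09, whereas replicate 4, at 2.02, lies within the 1.30 to 2.04 of saline.

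Lung transcripts differed broadly between OVA and saline after high exhaust. Of 8315 genes tested, 1415 were called (17.0%): 572 rose (6.88%) and 843 fell (10.1%). At the level of probe sets 2454 of 13575 were called (18.1%), 1042 up (7.68%) and 1412 down (10.4%), and 4343 had an unadjusted p below 0.05 against the 679 that 5% would give. The median log2 difference was 0.68 among genes that rose and -0.68 among those that fell, against -0.04 over all tested genes. Beyond 2-fold there were 103 rises and 153 falls. The 4 OVA values lay wholly above the 4 saline values in 8.08% of genes and wholly below them in 11.0%. Without OVA replicate 4 the count was 1817 genes (21.9%), 771 up (9.27%) and 1046 down (12.6%). When the 3'/5' ratio was added to the model it was 1185 (14.3%), 433 up (5.21%) and 752 down (9.04%), and 975 genes (369 up, 606 down) were called in all 3 fits.

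When the model held both the B1 signal and the 3'/5' ratio, 21 genes were called (0.253%), 7 up (0.0842%) and 14 down (0.168%), of which 18 were also called without them. All 21 kept the sign they had without the covariates. The median SE was 0.367 in that fit against 0.184 without covariates, and the B1 signal itself did not overlap between the groups. Of the 79 called genes that were named by rule, 1 kept its call there, the splicing factor Rbm25. Chd8, named later to complete a count, was also called in both fits. How much of the change in the other genes goes with the evenness of the RNA cannot be told apart from the ovalbumin group by these arrays.

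OVA replicate 4 lay between the groups. Among the 1817 genes called without it, it fell on the OVA side of the saline mean in 1503 (82.7%) and beyond all 4 saline arrays in 1188 (65.4%). Its median position was 0.51, where 0 is the saline mean and 1 the mean of OVA replicates 1 to 3. For replicates 1, 2 and 3, each held out in the same way, the median positions were 0.90, 0.90 and 0.89, and between 88.3% and 89.2% of the called genes lay beyond all saline arrays. These shares describe an array that the call had not used, set against saline arrays that it had used.

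The mean log2 signal over all arrays had to pass a limit of 7.11. Of the 20 largest changes, 4 rises had a saline mean under that limit: Xdh, Nt5e, Sirt2 and Sult1d1. In 5 falls the OVA mean lay under it: Fubp1, Wdtc1, Brwd1, Phxr4 and Atxn7. Among all called genes this held for 35 rises and 44 falls. The fold changes of such genes rest on a dim group and are uncertain. The largest rise was that of Xdh, the xanthine oxidoreductase that ends purine breakdown in uric acid. It gave 10.45, 10.80, 10.09 and 10.58 with OVA and 7.28, 6.79, 7.11 and 6.77 with saline, 11.2-fold higher (3.49 ± 0.42, adjusted p = 1.63e-05), and the groups were far apart. Its saline mean, 6.99, lay under the limit, as in the other exposures (7.08 and 6.92), so Xdh passed the filter only through the OVA arrays and had to differ. Nt5e, the ecto-5'-nucleotidase CD73 that turns extracellular AMP into adenosine, gave 9.06, 9.10, 8.63 and 6.90 against 5.61, 5.38, 5.60 and 5.50 (2.90 ± 0.50, adjusted p = 0.000474). Replicate 4 was the low OVA array for Nt5e, and the difference without it was 3.41. Its saline means (5.52, and 6.89 and 6.95 in the other exposures) were under the limit too, so the same holds for Nt5e. Sirt2, an NAD-dependent deacetylase, gave 9.61, 8.82, 9.42 and 9.24 against 5.20, 7.13, 7.22 and 6.93 (2.66 ± 0.66, adjusted p = 0.00821). Here saline replicate 1 stood far below the other saline arrays, and the saline mean, 6.62, was under the limit.

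Further large rises were of several kinds. Sult1d1, a cytosolic sulfotransferase listed among club cell markers, gave 8.46, 8.63, 8.41 and 8.29 with OVA and 6.36, 6.996, 6.13 and 5.95 with saline (2.09 ± 0.39, adjusted p = 0.000833). ND5, the subunit of respiratory complex I that mitochondrial DNA encodes, gave 12.87, 13.39, 14.02 and 13.05 against 11.90, 10.74, 11.08 and 11.39 (2.06 ± 0.32, adjusted p = 0.000144). Lrp4, a receptor of the low-density lipoprotein receptor family that modulates Wnt signalling, gave 8.99, 9.12, 9.17 and 9.45 against 7.50, 7.07, 7.08 and 6.98 (2.02 ± 0.33, adjusted p = 0.000224). In all 3 genes the OVA arrays lay above every saline array, replicate 4 included. The saline mean of Sult1d1, 6.36, was under the limit of 7.11. Over the saline arrays of all exposures its mean was under the limit too. Sult1d1 thus passed the filter only through the OVA arrays. Pigt, a subunit of the transamidase that attaches GPI anchors, rose by 1.92 ± 0.53, Myof, a ferlin of membrane repair, by 1.79 ± 0.54, and Rraga, a Rag GTPase that signals amino acids to mTORC1, by 1.70 ± 0.29 (adjusted p = 0.0151, 0.0238 and 0.000429). The call of Pigt was lost without saline replicate 2, and that of Myof without OVA replicate 2, saline replicate 2 or saline replicate 3, with the 3'/5' covariate (1.31 ± 0.47, adjusted p = 0.0611) and with the B1 covariate (adjusted p = 0.731).

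Snrpd3, a core Sm protein of the spliceosome, showed how far probe sets of 1 gene can part. Its brightest probe set gave 9.14, 10.42, 10.04 and 8.76 with OVA and 7.36, 7.72, 7.28 and 7.03 with saline (2.24 ± 0.43, adjusted p = 0.00109), but its other tested probe set differed by -0.28 ± 0.15 (adjusted p = 0.202). Among called genes 589 had more than 1 tested probe set, with 893 further probe sets in all. Of these, 614 had the sign of the gene's call, 232 were called in the same direction and 44 in the opposite one.

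The largest fall was that of Fubp1, a single-stranded DNA-binding protein that acts on the Myc promoter. It gave 7.14, 7.34, 6.51 and 6.32 with OVA and 9.22, 9.57, 9.26 and 9.14 with saline, 5.54-fold lower (-2.47 ± 0.28, adjusted p = 1.07e-05). Its OVA mean, 6.83, was under the signal limit of 7.11, so the fold is uncertain. The second probe set of Fubp1 differed by 0.38 ± 0.22 (adjusted p = 0.236). Sfpq, a paraspeckle and splicing protein, gave 7.37, 8.999, 8.94 and 8.07 against 10.88, 10.40, 11.04 and 10.87 (-2.45 ± 0.38, adjusted p = 0.000146). Of its 3 other probe sets 1 fell (-0.59 ± 0.17, adjusted p = 0.0219), and the others gave 0.11 and -0.24. Zeb2, a zinc finger repressor, gave 8.90, 8.94, 9.27 and 9.03 against 11.10, 10.61, 11.00 and 11.01 (-1.89 ± 0.23, adjusted p = 1.63e-05), with every OVA array well below the saline arrays.

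Zbtb20, another zinc finger repressor, gave 8.87, 9.34, 9.99 and 10.66 with OVA and 11.73, 11.38, 11.69 and 11.95 with saline (-1.98 ± 0.33, adjusted p = 0.000375). Replicate 4 was the nearest OVA array to saline, and a second probe set also fell (-0.57 ± 0.18, adjusted p = 0.0275). Srek1, a regulator of splice site choice, gave 7.74, 8.35, 8.05 and 8.47 against 10.20, 9.63, 9.98 and 10.20 (-1.85 ± 0.24, adjusted p = 2.53e-05). Its second probe set differed by -0.56 ± 0.21 and was not called (adjusted p = 0.061). Wdtc1 fell by 2.29 ± 0.46 on the log2 scale, the bromodomain protein Brwd1 by 2.02 ± 0.45 and Atxn7, a subunit of the SAGA histone acetylase complex, by 1.87 ± 0.39 (adjusted p = 0.00182, 0.0039 and 0.00216), and in each replicate 4 was the highest OVA array. Without it these differences were -2.79, -2.39 and -2.36. The OVA means of Wdtc1 (6.11), Brwd1 (6.62) and Atxn7 (6.46) were under the signal limit of 7.11. Over the OVA arrays of all exposures the means of Wdtc1 and Brwd1 were under it too. These 2 genes thus passed the filter only through the saline arrays. Brwd1 had a second probe set that fell by 1.80 ± 0.38 on the log2 scale and another at 0.07 ± 0.27. Phxr4 differed by -1.95 ± 0.61 (adjusted p = 0.0283) on arrays that spread from 5.07 to 7.67 with OVA, and by 0.27 with both covariates. Its call was lost without OVA replicate 1 or 3 or saline replicate 2 or 4. The OVA mean of Phxr4, 6.00, was under the limit, as was its mean over the OVA arrays of all exposures. Phxr4 too passed the filter only through the saline arrays.

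**Figure D2:**
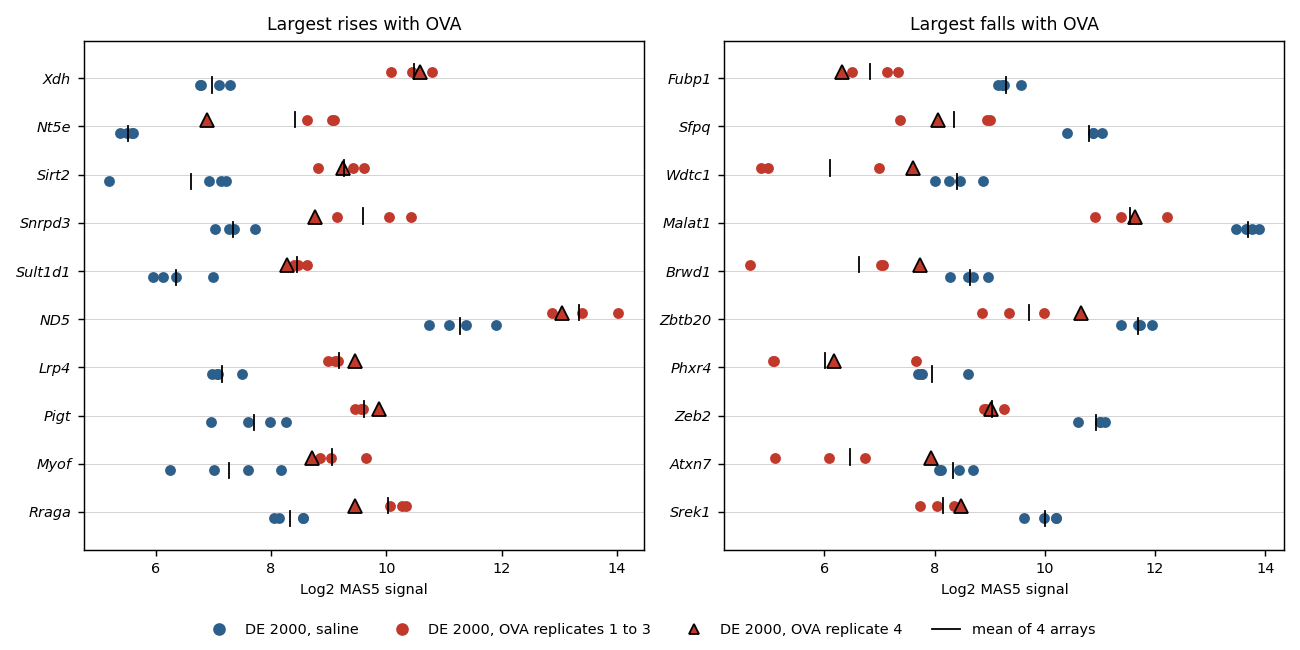
Each point is the log2 MAS5 signal of 1 array for the 10 largest rises (left) and the 10 largest falls (right) among called genes whose groups do not overlap, with saline in blue, OVA in red, OVA replicate 4 as a triangle and a bar at each mean of 4 arrays. Replicate 4 is the OVA array nearest saline in Nt5e (6.90) and Atxn7 (7.93) and lies with the other OVA arrays in Xdh (10.58) and Zeb2 (9.03).

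Long noncoding RNAs listed here as nuclear, a label that the arrays did not test, fell. All 4 tested members of that list were called down, with a median of -1.10 against -0.04 over all tested genes, where 10.1% of genes were called down. The count was 4 of 4 without replicate 4 and with the 3'/5' covariate, and 0 of 4 with both covariates, where the median was -1.08. Over all tested genes 12.6% fell without replicate 4 and 9.04% with the 3'/5' covariate. Malat1, an abundant RNA of nuclear speckles, gave 10.91, 12.22, 11.38 and 11.63 with OVA and 13.47, 13.89, 13.65 and 13.77 with saline (-2.16 ± 0.26, adjusted p = 1.7e-05). Its other 4 probe sets differed by -3.02, -3.02, -2.66 and -1.08. Neat1, the scaffold of paraspeckles, gave 11.96, 12.17, 12.16 and 11.89 against 13.32, 13.27, 13.35 and 13.54 (-1.32 ± 0.16, adjusted p = 1.63e-05), with more than a log2 unit between the groups. Meg3, an imprinted RNA, and Gas5, the host of small nucleolar RNAs, fell by 0.88 ± 0.21 and 0.52 ± 0.14 on the log2 scale (adjusted p = 0.00651 and 0.0108). The OVA and saline arrays overlapped in Gas5. The list median was -0.79 in air and -0.97 at DE 500. The B1 control was also lower with OVA, and its part in these falls was not tested beyond the covariate fits.

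Splicing factors and chromatin regulators were counted next. Of 51 tested splicing factors and nuclear RNA-binding proteins 15 fell and 3 rose (median -0.35; 10.1% of all tested genes fell), and the counts without replicate 4 were 20 and 3 (12.6% of all genes fell). Besides Sfpq these included Rbm25 at 8.85, 9.60, 9.29 and 9.004 with OVA and 10.43, 10.72, 10.76 and 10.72 with saline (-1.47 ± 0.17, adjusted p = 1.01e-05). With both covariates Rbm25 gave -1.69 ± 0.36 (adjusted p = 0.0443), but its second probe set differed by 0.26 ± 0.22 (adjusted p = 0.435). Snrnp70, a protein of the U1 particle that recognizes splice sites, fell by 1.44 ± 0.22 and the helicase Ddx39b by 0.90 ± 0.13 on the log2 scale (adjusted p = 0.000143 and 5.36e-05). The 3 rises were Tra2b (0.73), Hnrnpd (0.40) and Nono (0.40).

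Of 22 tested chromatin regulators 9 fell and 0 rose (median -0.37), where 10.1% of all tested genes fell. The falls numbered 11 without replicate 4 (12.6% of all genes) and 8 with the 3'/5' covariate (9.04%). Kmt2a, a histone H3 lysine 4 methyltransferase, gave 9.41, 9.54, 9.69 and 9.52 with OVA and 10.39, 10.59, 10.65 and 10.67 with saline (-1.04 ± 0.13, adjusted p = 2.38e-05). Its second probe set fell as well (-0.80 ± 0.23, adjusted p = 0.0192). Crebbp, a histone acetyltransferase, differed by -1.03 ± 0.16, Brd2, a reader of acetylated histones, by -1.48 ± 0.26, and Kdm5a, a histone demethylase, by -1.10 ± 0.21 (adjusted p = 0.000148, 0.000566 and 0.000999). The nucleosome remodeller Chd8 (-0.87, adjusted p = 0.0015) was the member of this list that was also called with both covariates (adjusted p = 0.0443). The second probe set of Brd2 gave -0.41 ± 0.25 (adjusted p = 0.268). The list medians in air and at DE 500 were -0.32 and -0.31.

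The circadian clock runs on a feedback loop in which the CLOCK and BMAL1 proteins bind E-boxes, such as CACGTG, and switch on the Per and Cry genes, whose proteins then repress them. The factors Dbp, Tef and Hlf are outputs of the same loop. Of 14 tested clock genes 6 fell and 0 rose (median -0.48), where 10.1% of all tested genes fell. The counts were the same without replicate 4 (12.6% of all genes fell). With the 3'/5' covariate 7 fell (9.04% of all tested genes fell there), and with both covariates 0 were called (median -0.35). In the 250 bases before the start, RefSeq promoters (GRCm38.p6) were found for 12 of the 14. CACGTG, which reads the same on both strands, stood in 3 of the 12, among them 2 of the 6 that fell, Per1 and Tef. Counted the same way, with a match before any listed start, it stood in 6.86% of the 27025 genes of the table. Counted by start, it stood in 4 of the 19 of these clock genes and in 6.02% of all 32851. The 2 runs that follow are shown because they hold that motif, in capitals, upstream of genes that fell, at chr11:69098699-69098948 (plus strand, first start of Per1) and chr15:81802423-81802672 (plus strand, first start of Tef).
Per1: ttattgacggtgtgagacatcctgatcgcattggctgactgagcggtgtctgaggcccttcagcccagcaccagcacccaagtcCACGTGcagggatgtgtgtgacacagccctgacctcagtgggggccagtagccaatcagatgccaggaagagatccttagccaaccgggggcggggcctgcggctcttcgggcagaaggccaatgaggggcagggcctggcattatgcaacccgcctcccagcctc
Tef: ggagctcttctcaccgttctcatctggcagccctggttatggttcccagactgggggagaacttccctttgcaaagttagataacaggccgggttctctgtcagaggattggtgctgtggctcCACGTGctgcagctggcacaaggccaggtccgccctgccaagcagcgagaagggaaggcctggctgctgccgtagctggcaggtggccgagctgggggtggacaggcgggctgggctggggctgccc
The motif began 166 bases before the start of Per1 and 127 bases before that of Tef. A match of these letters is a description of the sequence and not of binding, and the arrays measured no binding.

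Per1, a repressor of the loop, gave 9.28, 9.72, 9.45 and 9.51 with OVA and 11.16, 10.46, 10.39 and 10.47 with saline (-1.13 ± 0.15, adjusted p = 4.42e-05). The groups were apart, and saline replicate 1 was the high array. Hlf, an output factor, gave 8.66, 8.72, 8.88 and 8.83 against 10.05, 10.35, 9.95 and 10.52 (-1.44 ± 0.20, adjusted p = 6.04e-05), although its second probe set differed by 0.18 ± 0.15 (adjusted p = 0.447). Tef gave 11.99, 11.76, 12.01 and 11.86 against 12.28, 12.46, 12.35 and 12.63 (-0.53 ± 0.10, adjusted p = 0.00122). Its other 2 probe sets were called in opposite directions (-1.84 and 1.92), so the level of Tef as a whole is uncertain. Cry2, the second repressor, gave 8.14, 8.02, 8.10 and 8.88 against 8.78, 8.96, 8.81 and 9.62 (-0.76 ± 0.19, adjusted p = 0.00917), where replicate 4 lay among the saline arrays. The list was completed by Per3 (-0.57, adjusted p = 0.023) and the kinase Csnk1e (-0.48, adjusted p = 0.0151). Nr1d1, a repressor of BMAL1, gave -0.97 ± 0.41 (adjusted p = 0.101; 0.0149 with the 3'/5' covariate), Dbp gave -0.47 ± 0.32 and Per2 0.47 ± 0.31. The median of the list was -0.18 in air and -0.17 at DE 500, and no member passed the test of a difference from either. The hour at which lungs were collected is not given, and its part in these differences was not tested.

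Some neutrophil and acute phase genes fell with OVA at this dose. Of 13 tested neutrophil markers 4 fell and 0 rose, and 12 of 13 lay below 0 (median -0.35). Over all tested genes 10.1% fell, 55.0% lay below 0 and the median was -0.04. Without replicate 4 the counts were again 4 and 0, with Cd177 in place of S100a8 (12.6% of all tested genes fell there). The mean log2 level of the list lay between 8.62 and 8.99 with OVA and between 9.22 and 9.45 with saline, without overlap. S100a9 and S100a8 form calprotectin, an abundant cytosolic complex of neutrophils. S100a9 gave 10.71, 10.58, 10.76 and 10.27 with OVA and 11.75, 12.50, 11.28 and 11.40 with saline (-1.15 ± 0.32, adjusted p = 0.0171), and S100a8 gave 10.74, 9.95, 10.28 and 10.05 against 11.35, 12.13, 10.70 and 10.78 (-0.99 ± 0.31, adjusted p = 0.0315). Saline replicate 2 was the high array in both, and without it S100a9 and S100a8 lost their calls. Il1b, the cytokine interleukin 1 beta, gave 9.12, 8.16, 8.76 and 8.17 against 9.66, 9.41, 9.12 and 9.13 (-0.78 ± 0.22, adjusted p = 0.0185), and Pglyrp1, which binds peptidoglycan and is stored in neutrophil granules, differed by -0.88 ± 0.29 (adjusted p = 0.0397).

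The neutrophil calls depended on single arrays. With the 3'/5' covariate 2 of 13 fell, S100a9 (adjusted p = 0.0398) and Il1b (adjusted p = 0.0142), and with both covariates 0. Over all tested genes 9.04% fell with the 3'/5' covariate. Leaving out 1 array ended the call of S100a8 in 5 of 8 cases, OVA replicates 2, 3 and 4 and saline replicates 1 and 2. It ended that of Pglyrp1 without OVA replicate 2 or 3 or saline replicate 1 or 4, and that of Il1b without OVA replicate 2 or saline replicate 1. Cd177, a surface glycoprotein of neutrophils, gave 8.86, 7.76, 8.61 and 9.48 against 9.07, 9.25, 9.62 and 10.04 (-0.82 ± 0.30, adjusted p = 0.0609). It was called without OVA replicate 4 (-1.09, adjusted p = 0.0102). The list median was 0.05 in air and 0.15 at DE 500, and no member passed the test of a difference between exposures.

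Of the genes named by rule, Saa3, an amyloid protein that lung cells make in inflammation, gave the widest split within the OVA group. It gave 7.69, 6.73, 8.24 and 10.35 with OVA and 10.12, 10.54, 9.90 and 10.06 with saline (-1.90 ± 0.48, adjusted p = 0.00929). OVA replicates 1 to 3 lay far below every saline array while replicate 4 lay among them, and without that array the difference was -2.60 (adjusted p = 5.16e-05). With both covariates it was -0.02 ± 0.84. The OVA difference in Saa3 was 0.31 ± 0.48 in air and -0.08 ± 0.48 at DE 500, and the difference of DE 2000 from air was -2.21 (adjusted p = 0.483). Pigr, which transports IgA through epithelial cells, gave 10.47, 10.41, 10.64 and 11.40 against 11.51, 11.74, 11.53 and 11.28 (-0.78 ± 0.22, adjusted p = 0.0159), again with replicate 4 among the saline arrays. Its call was lost without OVA replicate 1 or 2. These were the 2 called of 9 tested acute phase genes, where 10.1% of all tested genes fell. Of the 9, 4 lay above 0 and 5 below. The list median was -0.07, near the -0.04 over all tested genes. The copper carrier Cp joined Saa3 and Pigr without replicate 4 (-1.01, adjusted p = 0.00261; 12.6% of all genes fell there). Another probe set of Cp was called down with all arrays (-1.285 ± 0.262, adjusted p = 0.00193). The remaining probe sets of Cp, from -0.543 to 0.146, were not called. The haptoglobin gene Hp gave -0.33 ± 0.14 (adjusted p = 0.122). Lcn2, a siderophore-binding protein counted in both lists, gave 0.00 ± 0.18.

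**Figure D3:**
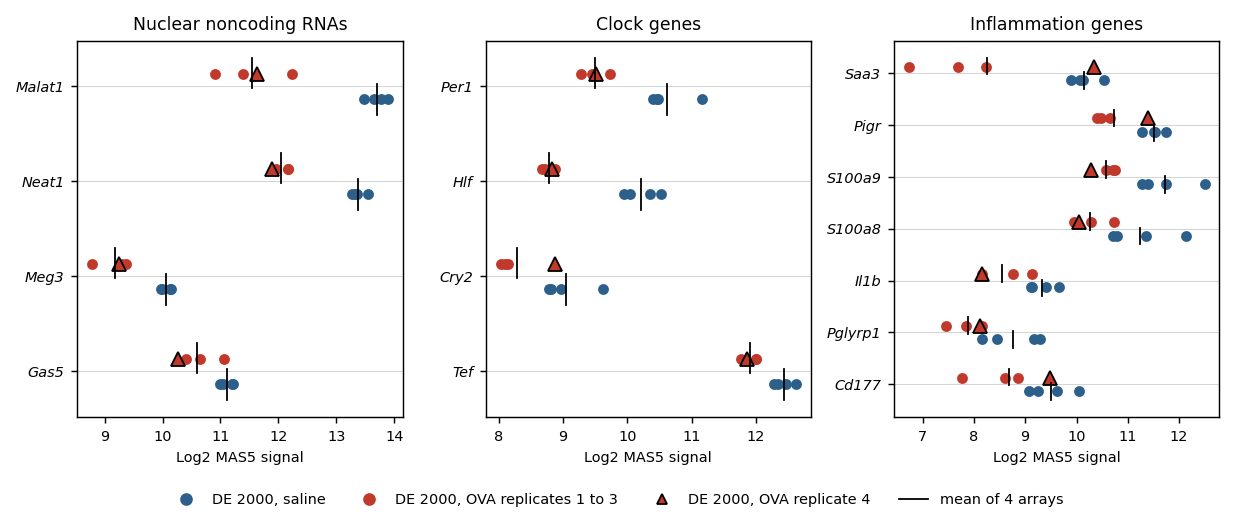
Each point is the log2 MAS5 signal of 1 array at DE 2000 for nuclear noncoding RNAs, clock genes and inflammation genes, with saline in blue, OVA in red, OVA replicate 4 as a triangle and a bar at each mean of 4 arrays. In Malat1, Neat1, Per1, Hlf and Tef all 4 OVA arrays lie below the saline arrays, whereas in Saa3 replicate 4, at 10.35, lies within the 9.90 to 10.54 of saline.

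Of 9 tested genes of the allergic response 0 were called, where 17.0% of all tested genes were, a share that would give few calls in a list of this size. Of the 9, 5 lay above 0 and 4 below (median 0.04), with 0 calls also without replicate 4 and with the 3'/5' covariate. Chil3, a chitinase-like protein of alternatively activated macrophages, gave 11.76, 11.86, 12.27 and 12.07 with OVA and 11.69, 12.12, 11.58 and 11.39 with saline (0.29 ± 0.16, adjusted p = 0.222). Retnla, a resistin-like protein of the same cells, gave 11.28, 11.39, 11.20 and 11.11 against 11.32, 11.06, 11.93 and 11.61 (-0.24 ± 0.21, adjusted p = 0.468), and both pairs of groups overlapped. The mucin Muc5b gave -0.57 ± 0.26 (adjusted p = 0.127). The interleukin 13 receptor Il13ra1 gave 0.29 ± 0.22 (adjusted p = 0.374) on its brightest probe set and 3.00 ± 0.89 (adjusted p = 0.0231) on another. Il4, Il13, Ccl11, the eosinophil chemokine eotaxin, and Clca1, a secreted protein of mucous cells, lay below the signal limit of 138.3 and were not tested. Linear signals of Il4 lay between 17.1 and 111.7 with OVA and between 64.5 and 115.2 with saline, and those of Ccl11 between 5.4 and 74.0 and between 14.2 and 60.3. Both pairs of ranges overlapped, and Il13 reached at most 14.7 with OVA.

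Of 5 tested markers of eosinophils, mast cells and basophils 0 were called, a list too short for a count to be read against 17.0%. It was 0 without replicate 4 as well. Cpa3, a mast cell protease, gave 7.42, 7.08, 7.69 and 7.31 with OVA and 6.95, 5.58, 6.96 and 6.89 with saline (0.78 ± 0.28, adjusted p = 0.0552). The groups did not overlap, saline replicate 2 was far below the others, and with the 3'/5' covariate Cpa3 was called (0.88 ± 0.29, adjusted p = 0.0426). The saline mean of Cpa3, 6.60, was under the signal limit of 7.11, as was its mean over the saline arrays of all exposures. Cpa3 thus passed the filter only through the OVA arrays, so a higher mean with OVA over all exposures was fixed by the filter. Hdc, which makes histamine, gave -0.49 ± 0.21 (adjusted p = 0.108), and the receptor Kit, on which mast cells depend, gave -0.36 ± 0.17 (adjusted p = 0.137; called with the covariate at -0.50, adjusted p = 0.0204). Gata2, a transcription factor of these lineages, gave -0.23 ± 0.15 (adjusted p = 0.306).

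Counts of class II and interferon genes are set beside the shares over all tested genes, of which 6.88% rose and 10.1% fell. Without replicate 4 these shares were 9.27% and 12.6%. Of 13 tested class II genes 1 rose: H2-Ea, an alpha chain that presents peptide to helper T cells, at 12.23, 11.87, 11.75 and 12.00 with OVA and 11.40, 10.83, 11.19 and 11.12 with saline (0.83 ± 0.14, adjusted p = 0.000358), and on its second probe set by 0.88 ± 0.27. Without replicate 4, H2-Aa (0.66, adjusted p = 0.0043) and H2-DMb2 were called too. H2-Aa gave 0.45 ± 0.18 (adjusted p = 0.0866) over all 4 arrays, H2-Oa -0.80 ± 0.30 (adjusted p = 0.0704) and the dendritic cell lectin Cd209a 0.59 ± 0.28 (adjusted p = 0.154). The saline means of Cd209a (6.95, and 6.98 and 7.04 in the other exposures) were under the signal limit of 7.11. Cd209a thus passed the filter only through the OVA arrays. Of 28 interferon-stimulated genes 3 rose and 1 fell (median 0.04), and without replicate 4 the counts were 4 and 1. The risers were the antiviral membrane protein Ifitm2 (0.47 ± 0.10, adjusted p = 0.00216), the transcription factor Irf9 (0.57 ± 0.15, adjusted p = 0.011) and Ifit2, which binds viral RNA (0.67 ± 0.23, adjusted p = 0.0485, lost in 13 of 22 alternatives). Eif2ak2, the kinase PKR that senses double-stranded RNA, gave 7.09, 7.72, 7.24 and 6.62 against 8.30, 8.09, 8.13 and 7.87 (-0.93 ± 0.23, adjusted p = 0.00765).

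Enzymes of the tricarboxylic acid cycle and of glutathione use gave rises, beside 6.88% of all tested genes that rose. That share was 9.27% without replicate 4 and 5.21% with the 3'/5' covariate. Of 23 tested genes of the cycle 5 rose and 1 fell (median 0.16, 18 of 23 above 0), with the same counts without replicate 4 and with the 3'/5' covariate, and 0 calls with both covariates. Idh3a, a subunit of the NAD-dependent isocitrate dehydrogenase, gave 10.25, 10.32, 10.30 and 9.68 with OVA and 8.92, 9.24, 8.94 and 8.73 with saline (1.18 ± 0.22, adjusted p = 0.000833). Its second probe set differed by 0.46 ± 0.20 and was not called (adjusted p = 0.104). Idh2, the NADP-dependent mitochondrial enzyme, gave 10.76, 11.11, 10.78 and 10.90 against 10.47, 9.77, 9.74 and 9.86 (0.93 ± 0.17, adjusted p = 0.000825), with saline replicate 1 as the high array. Dld, the lipoamide dehydrogenase shared by the large dehydrogenase complexes, gave 8.43, 8.26, 9.09 and 8.03 against 6.70, 6.57, 7.19 and 7.58 (1.44 ± 0.31, adjusted p = 0.00275). Its saline mean, 7.01, was under the signal limit of 7.11. The succinate dehydrogenase subunits Sdhb (0.43) and Sdhd (0.79) also rose. Ogdh, which oxidizes oxoglutarate, differed by -0.49 ± 0.12 (adjusted p = 0.00972). The median of the list was 0.00 in air and 0.06 at DE 500.

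Of 38 tested genes of glutathione and peroxide metabolism 7 rose and 1 fell (median 0.17). Without replicate 4 the counts were 6 and 2 (9.27% of all tested genes rose), and with the 3'/5' covariate 5 and 2 (5.21% rose). With scaling to the array median they were 3 and 2. There 624 of 8315 tested genes rose, a share like that of the list. Gstt1, a glutathione transferase, gave 11.15, 11.04, 10.86 and 11.52 with OVA and 10.10, 10.55, 10.28 and 10.27 with saline (0.84 ± 0.16, adjusted p = 0.000972). Mgst1, a microsomal transferase, rose by 0.36 ± 0.11 (adjusted p = 0.0269). Gsta3, a transferase abundant in club cells, gave 10.22, 10.59, 9.88 and 8.96 against 9.34, 8.85, 8.84 and 8.80 (0.96 ± 0.27, adjusted p = 0.0155), with replicate 4 near the saline arrays and a second probe set at 0.81 ± 0.17. The member that fell was Gclm, the modifier subunit of the enzyme that limits glutathione synthesis, at 8.38, 9.30, 8.36 and 9.69 against 9.97, 9.82, 10.24 and 9.71 (-1.01 ± 0.27, adjusted p = 0.0137). With both covariates Gclm gave 0.30 ± 0.51. Mgst1 lost its call in 9 of 22 alternatives, among them median scaling and leaving out OVA replicate 3 or saline replicate 1, 2 or 3. Gsta3 lost its call without OVA replicate 1 or 2, and Gclm without OVA replicate 1 or 3.

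Counts of structural cell genes are set beside the 6.88% of all tested genes that rose and the 10.1% that fell, from which several differ little. Of 30 tested endothelial markers 3 rose and 5 fell (median 0.02), and of 41 fibroblast and matrix genes 5 rose and 4 fell (median 0.01). Thbd, the anticoagulant receptor thrombomodulin, gave 12.33, 12.49, 12.41 and 12.76 with OVA and 11.84, 11.90, 11.96 and 12.03 with saline (0.57 ± 0.13, adjusted p = 0.00386). Ptprb, the phosphatase VE-PTP of vascular junctions, gave 12.04, 12.19, 12.22 and 12.55 against 12.86, 13.22, 12.92 and 13.00 (-0.75 ± 0.14, adjusted p = 0.00105). Vwf, the clotting protein stored in endothelium, and Ace, which makes angiotensin II, fell by 0.64 ± 0.14 and 0.57 ± 0.13 on the log2 scale (adjusted p = 0.00362 and 0.00524). The second probe set of Ace differed by -0.29 ± 0.29 and was not called (adjusted p = 0.535). Without replicate 4 the endothelial counts were 7 and 5 and those of fibroblast and matrix genes 6 and 4. In that fit 9.27% of all tested genes rose and 12.6% fell.

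Ogn, a small leucine-rich matrix proteoglycan, gave 12.57, 12.84, 12.55 and 12.63 with OVA and 11.72, 11.70, 11.76 and 11.76 with saline (0.91 ± 0.12, adjusted p = 2.53e-05), and a second probe set rose by 1.84 ± 0.45. Tcf21, a transcription factor of lung fibroblasts, gave 12.20, 12.16, 11.85 and 12.05 against 11.14, 11.27, 11.37 and 11.30 (0.79 ± 0.18, adjusted p = 0.00471). Col5a2, a chain of collagen V, rose by 0.71 ± 0.15 (adjusted p = 0.00223). Mmp14, a membrane-bound protease of the matrix, gave 9.53, 9.24, 8.97 and 9.39 against 9.97, 10.20, 10.26 and 10.05 (-0.84 ± 0.13, adjusted p = 0.000172). In these 4 genes the OVA and saline arrays did not overlap.

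Epithelial counts are read against the same 6.88% and 10.1%. Of 21 tested alveolar type 2 markers 2 rose and 3 fell, of 19 type 1 markers 3 rose and 2 fell, and of 22 club cell markers 3 rose and 1 fell, with medians of 0.04, 0.07 and 0.13. Without replicate 4 the counts up and down were 3 and 3, 2 and 3, and 4 and 2, where 9.27% of all tested genes rose and 12.6% fell. Cxcl15, the chemokine lungkine, gave 13.51, 13.28, 13.36 and 13.30 with OVA and 12.68, 12.71, 12.49 and 13.01 with saline (0.64 ± 0.13, adjusted p = 0.00189). Lpcat1, which makes surfactant phosphatidylcholine, gave 13.06, 13.36, 13.04 and 12.80 against 13.84, 13.86, 13.77 and 13.59 (-0.70 ± 0.11, adjusted p = 0.000268). Its other probe sets differed by -0.43 and -0.56 and were not called (adjusted p = 0.108 and 0.065). Hc, complement C5, and the mucin Muc1 fell by 0.51 ± 0.14 and 0.47 ± 0.16 on the log2 scale (adjusted p = 0.0132 and 0.0403). Among type 1 markers the caveolins Cav1 and Cav2 rose by 0.48 ± 0.12 and 0.57 ± 0.20 and the growth factor carrier Igfbp2 by 0.52 ± 0.15, whereas the keratin Krt7 differed by -0.71 ± 0.23 (adjusted p = 0.009, 0.0462, 0.0215 and 0.0374). Cyp4b1, a club cell P450, rose by 0.32 ± 0.10 (adjusted p = 0.0356). The calls of Cav2, Muc1, Cyp4b1 and Krt7 were lost in 12 to 16 of 22 alternatives each, among them the 3'/5' covariate. The second probe set of Cav2 gave 0.26 ± 0.23 (adjusted p = 0.457). Hc lost its call without OVA replicate 3, and Igfbp2 without OVA replicate 1 or saline replicate 1.

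**Figure D4:**
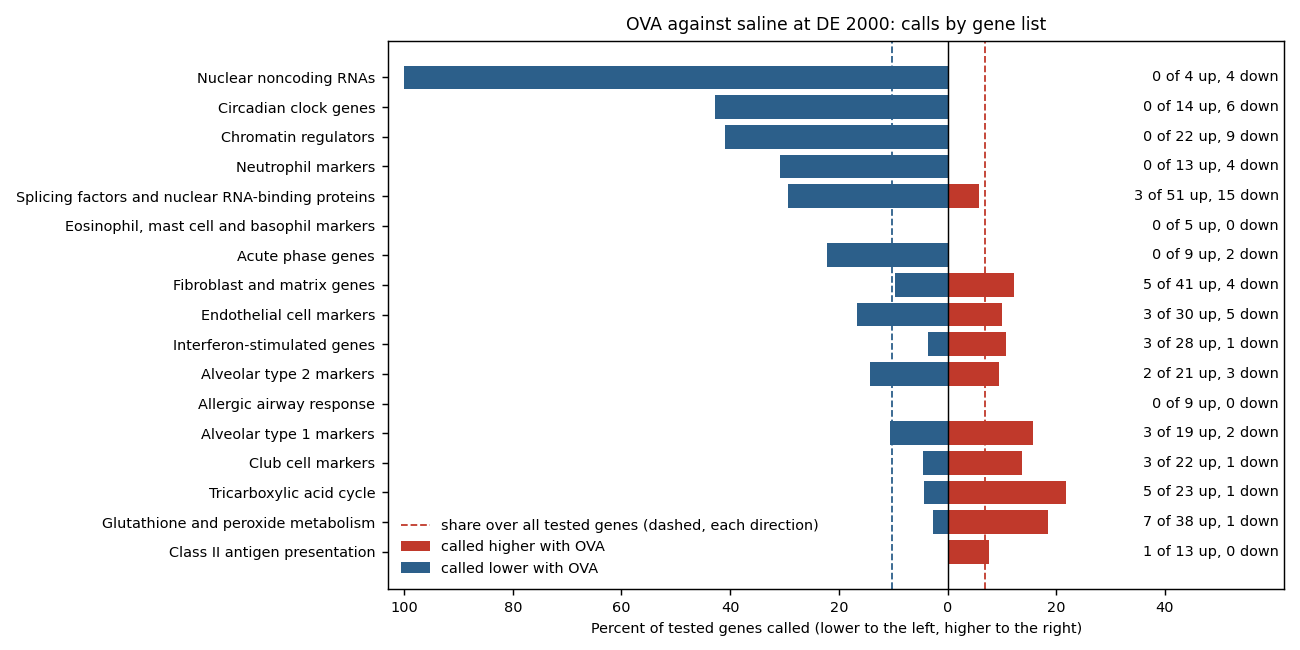
Bars show the percent of tested genes of each of 17 lists called higher (red, to the right) or lower (blue, to the left) with OVA at DE 2000, ordered by the median log2 difference, with counts at the right; dashed lines mark the shares over all 8315 tested genes, 6.88% higher and 10.1% lower. Nuclear noncoding RNAs (4 of 4), clock genes (6 of 14) and chromatin regulators (9 of 22) extend beyond the line to the left, and the allergic response list has 0 calls.

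The same contrast of OVA with saline was made in filtered air and at DE 500 on other arrays. Of the 1415 genes called at DE 2000, 1358 (96.0%) had the same sign in air and 1374 (97.1%) at DE 500, against 75.6% of all tested genes in each. The sign was shared with both in 1328 (93.9%). Over the 8315 tested genes, the differences at DE 2000 correlated at 0.72 with those in air and at 0.74 with those at DE 500; no arrays are shared, but the lower 3'/5' ratio and B1 signal of OVA arrays are, and their part in the likeness was not tested. Among called genes the median size in air was 0.69 and at DE 500 0.67 of that at DE 2000, where the genes had been chosen. Rraga, for example, differed by 1.67 in air, 1.75 at DE 500 and 1.70 at DE 2000. Xdh differed by 3.09 ± 0.42, 3.17 ± 0.42 and 3.49 ± 0.42. As Xdh passed the filter only through the OVA arrays, a higher mean with OVA over all exposures was fixed by the filter. Zbtb20 differed by -1.81 ± 0.33, -1.85 ± 0.33 and -1.98 ± 0.33.

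In the main fit of all tested probe sets, without covariates, no gene passed the test of a difference in the OVA effect between exposures. For DE 2000 against air limma called 0 of 13575 probe sets (0.0%), with 829 at an unadjusted p below 0.05, and for DE 2000 against DE 500 it called 0 (0.0%) with 655. Against air, other fits without covariates called 1 with 1 probe set per gene, 1 with array weights and 2 without OVA replicate 2. With the B1 covariate the calls were 181 against air and 56 against DE 500. The smallest p against air was that of Tbx4, a transcription factor of lung mesenchyme. It fell at DE 2000, from 10.08, 9.86, 9.88 and 9.68 with saline to 9.31, 9.42, 8.98 and 8.58 with OVA (-0.80 ± 0.15, adjusted p = 0.00105), and gave 0.45 ± 0.15 in air, a difference of -1.26 (adjusted p = 0.0852). Wdfy3, an autophagy scaffold, gave 8.29, 8.62, 8.73 and 7.96 with OVA and 9.93, 9.93, 10.21 and 10.16 with saline (-1.66 ± 0.24, adjusted p = 8.54e-05), against -0.14 ± 0.24 in air (adjusted p of the difference 0.297). Pgap2 differed by -1.01 ± 0.22 against 0.32 ± 0.22 in air, the helicase Ddx10 by -1.27 ± 0.16 against -0.29 ± 0.16, and the zinc finger gene Zfp109 by -0.56 ± 0.17 against 0.43 ± 0.17 (adjusted p of the differences 0.297, 0.33 and 0.363). The other probe sets of Pgap2 (-0.31 and 0.50) and of Ddx10 (0.06) were not called at DE 2000. The DE 2000 call of Zfp109 was lost without OVA replicate 3 or saline replicate 1.

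Against DE 500 the 5 smallest p-values belonged to Per1, Fignl1, Lama5, Ap3m1 and Asxl1, all with an adjusted p of 0.954. Per1 differed by -1.13 ± 0.15 at DE 2000, -0.18 ± 0.15 at DE 500 and -0.51 ± 0.15 in air. Fignl1, an ATPase of DNA repair, differed by -0.87 ± 0.22, 0.56 ± 0.22 and 0.09 ± 0.22. The laminin chain Lama5 gave -0.36 ± 0.12 at DE 2000 and 0.29 ± 0.12 at DE 500, Ap3m1, an adaptor of vesicle transport, 0.57 ± 0.12 and -0.13 ± 0.12, and the Polycomb-associated Asxl1 -0.77 ± 0.12 and -0.13 ± 0.12. At DE 2000 the other probe sets of Ap3m1 (-0.255 and 1.277) and of Asxl1 (0.338) were not called, and that of Lama5 fell (-0.582). The DE 2000 call of Lama5 was lost in 10 of 22 alternatives, among them median scaling and leaving out OVA replicate 1, 2 or 3 or saline replicate 1, 3 or 4. Il1b gave -0.78 at DE 2000, 0.22 in air and -0.12 at DE 500 (adjusted p of the differences 0.497 and 0.954). A missed threshold does not show that the effects were alike: the SEs leave room for differences of the size seen in Tbx4.

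**Figure D5:**
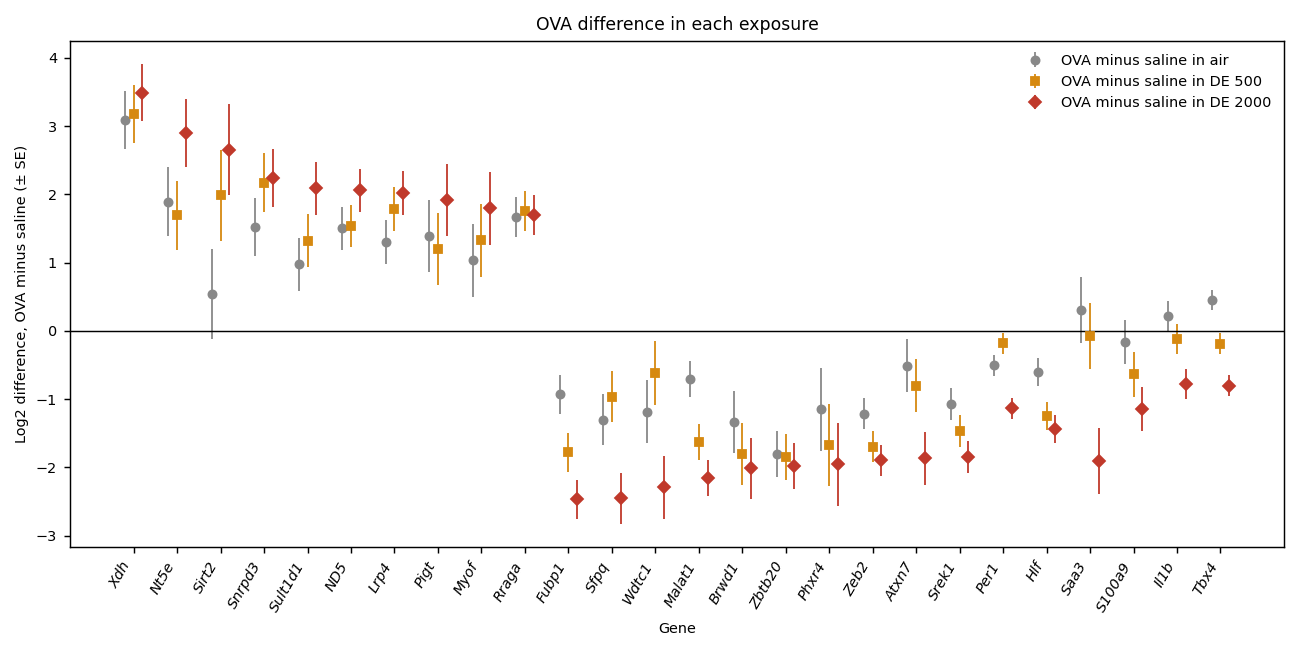
Points are log2 differences, OVA minus saline, in air (grey circles), at DE 500 (orange squares) and at DE 2000 (red diamonds), each from 4 arrays against 4, with bars of 1 SE. The 10 largest rises and 10 largest falls at DE 2000 have the same sign in all 3 exposures, while Saa3, Il1b and Tbx4 lie above 0 in air and below 0 at DE 2000. Of these rises, Xdh, Nt5e and Sult1d1 passed the filter only through the OVA arrays. Of the falls, Wdtc1, Brwd1 and Phxr4 passed it only through the saline arrays. For these genes the filter fixed the sign of the mean difference over the exposures. In the main fit, 0 of 13575 probe sets passed the test of a difference.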

How the data were processed

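Whole lung RNA had been hybridised to Affymetrix mouse arrays, and the authors deposited 1 linear MAS5 signal intensity per probe set and array (per the submitters' processing notes; no version given). The 2% trimmed mean was 500 on every array, and array medians lay between 182 and 243. Detection calls were not used here, and 4 arrays a group limit the precision. Log2 was taken of each signal, with no pseudocount added. Probe sets above the 40th percentile of mean log2 signal (138.3 as a linear signal; 13575) were tested with limma 3.58.1 in R 4.3.3, with 1 mean per group over all 24 arrays and a trend in the prior variance. The fit was tested on simulated data with known changes. Benjamini-Hochberg adjustment ran over all tested probe sets. Probe sets naming several genes or none entered the fit and no gene is named from them (438 and 649 of those tested).

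By rule, the text names the 10 genes that rose most and the 10 that fell most among calls with no overlap of groups, the 8 largest of each also called without OVA replicate 4 and with the 3'/5' covariate, up to 4 members of smallest p from each of 17 lists, the 5 smallest p of each difference between exposures, and Chil3, Retnla, Cd177, Pigr, Saa3, Lcn2, Il4, Il13, Ccl11 and Clca1. Other list members (such as Per3, Csnk1e, Nr1d1, Chd8, Tra2b, Hnrnpd, Nono, Sdhb, Sdhd and H2-DMb2) were named after their values were seen, to complete a count. Members and lists were chosen with earlier results of these data known. Alternatives changed the scaling, filter, pseudocount, covariates, weights, groups fitted and arrays left out.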

Additional observations from a re-analysis of the deposited data

Results flagged for a closer look

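In 18 of 200 sets of 4 arrays looked at, 1 array stood apart: its gap to the nearest of the others, as a share of the whole range, was above Dixon's critical value for 4 values. Chance flags about 5% of sets. OVA replicate 4 accounted for 7 of the 18, saline replicate 1 for 6, saline replicate 2 for 2, and OVA replicate 2, OVA replicate 3 and saline replicate 4 for 1 each. For OVA replicate 4 the gap share was 0.889 for the Gapdh 3'/5' ratio, 0.878 for the actin ratio and 0.897 for their mean, all high. It was 0.871 for the B1 signal, high, and 0.97 for the array median, low. The same array was high in Cry2 (0.858) and low in Idh3a (0.89).

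Saline replicate 1 was high in Gsta3 (0.913), Idh2 (0.84), Per1 (0.9) and Zfp109 (0.89) and low in Rbm25 (0.868) and Sirt2 (0.855). Saline replicate 2 was low in Cpa3 (0.946) and high in Phxr4 (0.917). Saline replicate 4 was high in Hdc (0.887). OVA replicate 2 was low in Col5a2 (0.856) and OVA replicate 3 in Hc (0.845).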

How the results depend on the processing

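The 2454 called probe sets became 1443 with 1 probe set per gene (fewer tested), 1258 with the B1 covariate (420 of them among the 2454; 51 of 79 named calls lost) and 38 with both (31 among the 2454); leaving out 1 array gave 1731 to 3363, the highest without OVA replicate 4. The share of calls that were higher was 42.5%, 50.6% with median scaling, which moved the median of the DE 2000 against air difference from -0.022 to 0.103. With the replicate number as a block 2526 were called and 2 of 79 named calls were lost; deviations of same-numbered arrays correlated at -0.00827, 0.15, 0.0376 and 0.138, so the numbers were not taken as pairs. For the difference from air, 0 calls became 1 with 1 probe set per gene, 1 with the 3'/5' covariate, 2 with that covariate and OVA replicate 4 left out, 181 with the B1 covariate and 1 with array weights, and 0 to 2 with 1 array left out (2 without OVA replicate 2). For the difference from DE 500, 0 calls became 3, 20 (without replicate 4) and 56 under the 3'/5' covariate, the same without that array and the B1 covariate, and 0 to 0 with 1 array left out. Signs turned for Gclm (0.304), Lama5 (0.03) and Phxr4 (0.267) with both covariates and for Ifit2 (-0.131) and Krt7 (0.199) with B1; the cause was not tested. With 1 array left out, the B1 difference ranged from -2.138 to -1.612 (exact permutation p = 0.0571, the smallest 3 against 4 allows), the Gapdh ratio from -2.298 to -1.437, the actin ratio from -0.95 to -0.375, their mean from -1.624 to -0.906, the hybridisation controls from -0.343 to -0.118 and the array median from -0.028 to 0.071.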
